A study of Mus musculus with 2 samples.

Results

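Mbnl2 tags were described over 10 genes that encode abundant enzymes of muscle glycogen turnover, glycolysis and the creatine phosphate buffer (Pygm, Gys1, Gpi1, Pfkm, Aldoa, Gapdh, Pgam2, Eno3, Ldha and Ckm), chosen by name from 16034 protein-coding genes with at least 1 tag. The tags came from HITS-CLIP, in which UV light fixes Mbnl2 to bound RNA and the short RNA pieces recovered with it are sequenced. Quadriceps muscle was compared between WT mice and *Mbnl1* KO (Mbnl1-/-) mice, whose germline allele lacks exon 3 of Mbnl1, all labelled C57BL/6 (the methods name a mixed background for crosses of Mbnl1 and Mbnl2 mutants) and 15 to 16 weeks old, and Mbnl2 was immunoprecipitated with the antibody 3B4 from tissue treated with a high (38.6 U/ml) or low (0.0386 U/ml) amount of RNase A. The 3 mice of a genotype are merged into 1 table, so no spread between mice and no test between genotypes could be computed. The libraries differ in depth, with 343554 tags collapsed from 5176203 reads in WT and 476543 from 50329234 in *Mbnl1* KO.

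Muscle fibres store glucose as glycogen and break it down during contraction, and the freed sugar phosphate enters glycolysis, which ends in pyruvate and lactate. Creatine kinase transfers phosphate from creatine phosphate to ADP and so refills ATP faster than glycolysis can. Mbnl proteins bind RNA at short motifs built around GC with a pyrimidine on each side, within introns, where they steer splicing, and within 3′UTRs. The question behind the comparison is whether Mbnl2 takes over RNA targets when Mbnl1 is gone, and these enzyme mRNAs are a set of abundant muscle transcripts on which its tags can be counted.

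The sequences below are the places where tags piled up most within these genes. Overlapping tags of both genotypes on the gene's strand were joined, and a joined run with at least 10 tags is called a site. There were 12 sites in 5 of the 10 genes, and they held 366 of the 761 tags. Shown is the 30-nt window around the highest point of the site with the most tags in each of these 5 genes, and of up to 2 further sites a gene where these have at least 20 tags, 8 windows in all. Each is read 5′ to 3′ on the RNA strand from mm9, written as DNA, with 4 motifs in capitals, namely TGCT as well as TGCC, CGCT as well as CGCC, which may overlap each other and were searched on the RNA strand only.
Ckm 3′UTR, chr7:20006871-20006900, plus strand: gCGCTccggagCGCCggcTGCTtctccatg
Ckm exon 2, coding, chr7:19999519-19999548, plus strand: gctgaactacaagcctcaggaggagtaccc
Aldoa 3′UTR, chr7:133938815-133938844, minus strand: tcactctTGCTGCTGCCctcgtgtgcggtg
Aldoa 3′UTR, second site, chr7:133938865-133938894, minus strand: ccccTGCCtacccactTGCTattgaagagg
Pfkm 3′UTR, distal site, chr15:97962735-97962764, plus strand: tacggctagatttcagctactcaagagttt
Pfkm 3′UTR, proximal site, chr15:97962541-97962570, plus strand: cctggtagatcatggcttctcagtgttcta
Pygm end of coding sequence, chr19:6398175-6398204, plus strand: ccccagatgagaagatctgagcttccacat
Ldha 3′UTR, chr7:54110755-54110784, plus strand: ccTGCTgcatTGCTGCCctgcaccaaacat
The windows of Ckm (3′UTR), Aldoa and Ldha hold 2 or 3 of these motifs each, while those of Pfkm, Pygm and Ckm exon 2 hold 0. Over all 12 sites, 5 windows held at least 1 motif, 4 of the 6 in 3′UTRs and 1 of the 6 in coding sequence. Among all 30-nt windows of the longest mRNAs of the 3888 coding genes with 20 or more pooled tags, 31.3% held at least 1 motif and 6.58% held at least 2. In the 3′UTRs of the 10 genes themselves 36.9% of windows held at least 1 and 12.01% at least 2, and in their coding sequence 38.1% held at least 1. A match is a description of the letters in the window and not a mapped contact.

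Summed over the 10 genes, 185 WT tags and 576 *Mbnl1* KO tags lay on the strand of the gene, which is 538 and 1209 tags per 1000000 tags of the table. The *Mbnl1* KO/WT ratio of the sums was 2.24, with an exact 95% Clopper-Pearson interval from 1.90 to 2.66. Every interval beside a ratio is of that kind and comes from the *Mbnl1* KO share of the tags, that beside a share of tags is the same interval of this share within its table, and that beside a level is an exact Poisson interval. They cover counting error alone, so they compare these libraries and not the genotypes. The strand was clear, with 12 WT and 15 *Mbnl1* KO tags on the opposite strand, or 6.09% and 2.54% of the tags over these genes, against 39.7% and 22.6% over all genes with at least 20 tags. Tags made mostly of a single base (at least 70% of the reference sequence) were also few here, 3 of the 185 WT tags and 1 of the 576 *Mbnl1* KO tags. They made up 44.0% and 17.0% of all placed tags in the tables. All tags, single-base ones included, were the divisor, so the size of each ratio depends on that choice, which the intervals do not cover. With single-base tags left out, the median ratio of the 10 genes fell from 2 to 1.43. In whole muscle, more Mbnl2 on each transcript, more transcript and more fibres with that transcript cannot be told apart, and RNA levels were not analysed here.

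**Figure D1:**
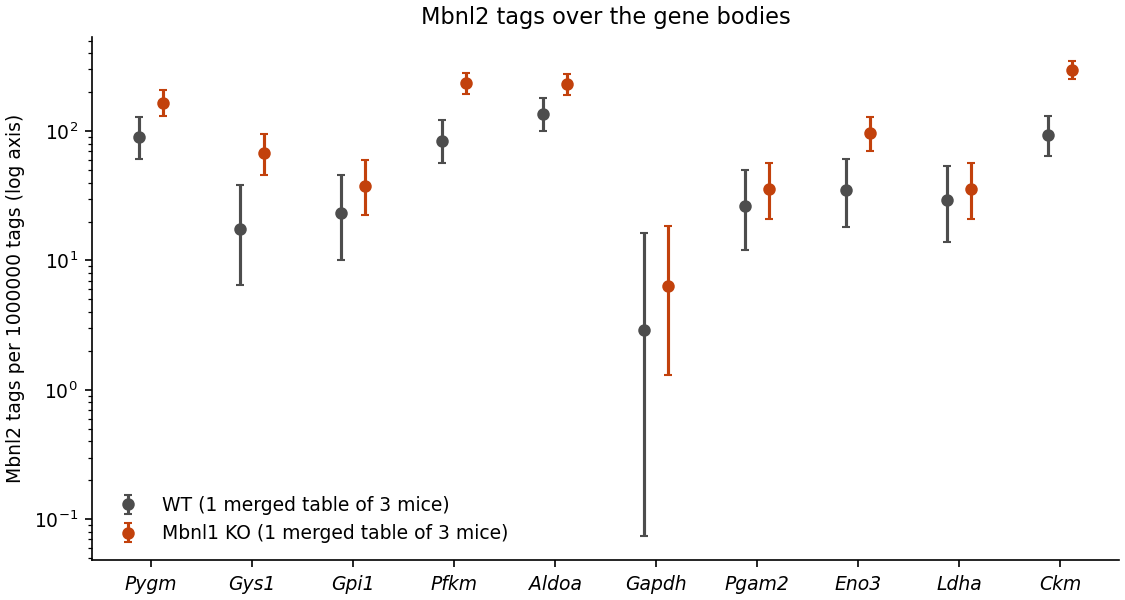
Mbnl2 tags per 1000000 tags of the table (log axis) over each of the 10 gene bodies, with exact 95% Poisson intervals; grey points are the merged WT table and orange points the merged *Mbnl1* KO table. Ckm runs from 93.1 in WT to 298 in *Mbnl1* KO, whereas Gapdh rests on 1 and 3 tags.

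Of the genes of glycogen turnover, Pygm encodes muscle glycogen phosphorylase, which releases glucose 1-phosphate from glycogen. On chromosome 19 (6384399 to 6398459, plus strand), Pygm carried 31 tags in WT against 79 in *Mbnl1* KO, which is 90.2 against 166 per 1000000. Its ratio was 1.84 (1.20 to 2.88). Gys1 encodes muscle glycogen synthase, the enzyme that lengthens the glycogen chain. On chromosome 7 (52690214 to 52711989, plus strand), it carried 6 tags in WT against 32 in *Mbnl1* KO (17.5 against 67.2 per 1000000), and its ratio of 3.84 (1.59 to 11.2) was the highest of the 10 genes. All 6 WT tags of Gys1 lay in its 3′UTR, which held 20 of the 32 *Mbnl1* KO tags, while 5 more fell in coding sequence and 7 in introns. Its 0 WT intron tags allow up to 8.73 tags per 1000000, the level of 3 tags.

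In the first steps of glycolysis, Gpi1 encodes glucose phosphate isomerase, Pfkm the muscle subunit of phosphofructokinase, the main point of control, and Aldoa the aldolase that splits the sugar. Gpi1 (chromosome 7, 34987141 to 35015308, minus strand) counted 8 tags in WT and 18 in *Mbnl1* KO, with a ratio of 1.62 (0.671 to 4.31). At this depth a difference was not detectable there. Pfkm (chromosome 15, 97923020 to 97962878, plus strand) stood at 84.4 per 1000000 in WT and 235 in *Mbnl1* KO, on 29 and 112 tags. The Pfkm ratio was 2.78 (1.84 to 4.35). Aldoa (chromosome 7, 133938748 to 133944265, minus strand) was the gene of the set with the most WT tags, 47, and had 110 *Mbnl1* KO tags. Its levels were 137 and 231 per 1000000, a ratio of 1.69 (1.19 to 2.43), below that of Pfkm, although the intervals of both genes overlap.

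In the later steps, Gapdh encodes glyceraldehyde 3-phosphate dehydrogenase, Pgam2 the muscle phosphoglycerate mutase, Eno3 the muscle enolase, and Ldha the lactate dehydrogenase subunit that favours lactate. Eno3 (chromosome 11, 70470704 to 70476015, plus strand) counted 12 tags in WT and 46 in *Mbnl1* KO (34.9 and 96.5 per 1000000), giving a ratio of 2.76 (1.44 to 5.73). Pgam2 (chromosome 11, 5701643 to 5703736, minus strand) counted 9 and 17, and Ldha (chromosome 7, 54096845 to 54110997, plus strand) 10 and 17. Their ratios of 1.36 (0.574 to 3.47) and 1.23 (0.530 to 3.00) do not separate the libraries. Gapdh (chromosome 6, 125111871 to 125116485, minus strand) had a single WT tag and 3 in *Mbnl1* KO, too few for a ratio to be read (2.16, 0.174 to 114). The buffer enzyme Ckm, the muscle creatine kinase (chromosome 7, 19996443 to 20006932, plus strand), had the most *Mbnl1* KO tags of the set. The 32 tags in WT and 142 in *Mbnl1* KO amount to 93.1 and 298 per 1000000, with a ratio of 3.20 (2.17 to 4.85). A same-strand gene model inside the first intron of Ckm, Gm17405, spans 2 of its WT and 1 of its *Mbnl1* KO tags.

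Of the 10 genes, 6 had an interval wholly above 1 (Pygm, Gys1, Pfkm, Aldoa, Eno3 and Ckm) and 0 had one below 1. Most other genes leaned the same way. Among the 3888 coding genes with 20 or more pooled tags, which include 9 of the 10 (all but Gapdh), the interval lay above 1 at 38.6% and below 1 at 3.83%. Calls of this kind come more easily with more tags. Of the 392 genes with at least 100 tags, 77.3% had an interval above 1, and so had all 4 genes of the set with as many tags (Ckm, Aldoa, Pfkm and Pygm). A ratio of at least 2 was found at 4 of the 9 genes (Gys1, Ckm, Pfkm and Eno3), against 41.6% of the 3888, and a ratio of at most 0.5 at 0 of the 9, against 3.76%. The median ratio of the 9 genes was 1.84 and that of the 3888 genes was 1.75. This order turned with single-base tags left out (1.39 against 1.48 over all genes tested that way). It held with tags of at least 2 reads (1.90 over 6 genes, against 1.49). Gys1 had a higher ratio than 88.9% of the 3888 genes and Ckm than 83.0%, while Ldha exceeded 29.3% of them. The count of 6 rests on how tags are defined. With single-base tags left out, 4 of the 9 genes had an interval above 1, beside 26.5% of all genes tested that way. With tags of at least 25 nt, 6 of the 6 genes that then had 20 tags did, beside 63%. Kept to tags with at least 2 reads, 2 of the 6 genes that then had 20 tags had an interval above 1, beside 18.7% of all genes tested that way, and with single-base tags also left out 0 did, beside 11.1%. Over 7 other definitions and scalings the interval stayed above 1 in 6 at both Ckm and Pfkm, in 4 at Gys1 and Eno3, in 3 at Pygm and in 1 at Aldoa.

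Levels of the genes can be set beside each other only per length of exon, here that of all annotated exons of the gene together. In *Mbnl1* KO muscle, Ckm led with 193 tags per 1000 nt of exon per 1000000 tags (exact Poisson interval 161 to 229), followed by Aldoa with 82.3 (67.5 to 99.4) and Pfkm with 65.3 (52.9 to 79.9). On this length the step from Ckm to Aldoa exceeded counting error, whereas the intervals of Aldoa and Pfkm overlap. Pgam2 (42.5), Pygm (41.1) and Eno3 (31.1) came next, with overlapping intervals. Gys1 (11.0), Ldha (10.6), Gpi1 (4.67) and Gapdh (2.79) were lowest. The intervals of Eno3 (20.1 to 45.9) and Gys1 (7.09 to 16.2) were also apart, and every other pair of neighbours overlapped. In WT muscle, Ckm (53.5, 34.9 to 78.4) and Aldoa (49.7, 36.5 to 66.1) did not differ beyond counting error, and Pgam2 (27.7), Pygm (22.6), Pfkm (12.4 to 30.6) and Eno3 (15.5) followed. The lowest WT levels were those of Ldha (9.76), Gys1 (3.65), Gpi1 (2.59) and Gapdh (1.29), and every pair of neighbours in the WT order overlapped. The order depends on the length used, since every gene but Ckm and Pgam2 has annotated exon sequence outside its longest coding mRNA. For Gpi1 the lengths were 4497 and 2037 nt, and for Aldoa 2754 and 1549 nt. Divided by the length of that mRNA, a choice made after the data were seen, Aldoa in *Mbnl1* KO was at 146 (120 to 177) beside Ckm at 193, with overlapping intervals, and apart from Pfkm at 69.2 (56.0 to 84.6). Ldha at 16.6 (9.09 to 27.9) then came next below Eno3 at 33.5 (21.7 to 49.5), also with overlap, and Pygm (45.3) came before Pgam2 (42.5). In WT Aldoa at 88.3 (64.9 to 117) came before Ckm at 53.5 (34.9 to 78.4), and Gpi1 (5.72) before Gys1 (4.75). The intervals of these last 3 pairs overlap too.

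The tags of these genes lay mainly in mature mRNA. Each tag was assigned by its midpoint to the 3′UTR, coding sequence, 5′UTR, another exon or an intron, and 1 tag of each table, both at Ckm, had its midpoint outside the gene. In WT, 64 of 185 tags (34.6%, 27.8 to 41.9) lay in 3′UTRs and 90 (48.6%, 41.2 to 56.1) in coding sequence. In *Mbnl1* KO, 235 of 576 tags (40.8%, 36.8 to 44.9) lay in 3′UTRs and 251 (43.6%, 39.5 to 47.7) in coding sequence. The 2 genotypes' shares overlap within counting error. Introns held 27 WT tags (14.6%) and 84 *Mbnl1* KO tags (14.6%), while over all genes with at least 20 tags introns held 75.4% and 57.2%. Coding sequence held 5.58% and 9.24% of the tags over all these genes, and 3′UTRs held 17.8% and 32.2%. The lengths of introns and exons, which set how many tags each can hold, were not corrected for in these shares.

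Per length, the 3′UTRs of the set were the most densely tagged. They held 54.8 WT and 145 *Mbnl1* KO tags per 1000 nt per 1000000 tags, coding sequence held 17.0 and 34.2, and introns held 0.663 and 1.49. The *Mbnl1* KO/WT ratio was 2.65 (2.0002 to 3.55) in 3′UTRs, 2.01 (1.57 to 2.59) in coding sequence and 2.24 (1.44 to 3.60) in introns, with overlapping intervals. Over all genes with at least 20 tags the ratios were 3.10 in 3′UTRs, 2.84 in coding sequence and 1.30 in introns. The value of all genes lies above the interval of the enzyme genes in coding sequence, inside it in 3′UTRs and below it in introns. Reads across a splice junction have no continuous match in the genome, so counts close to junctions may be low.

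**Figure D2:**
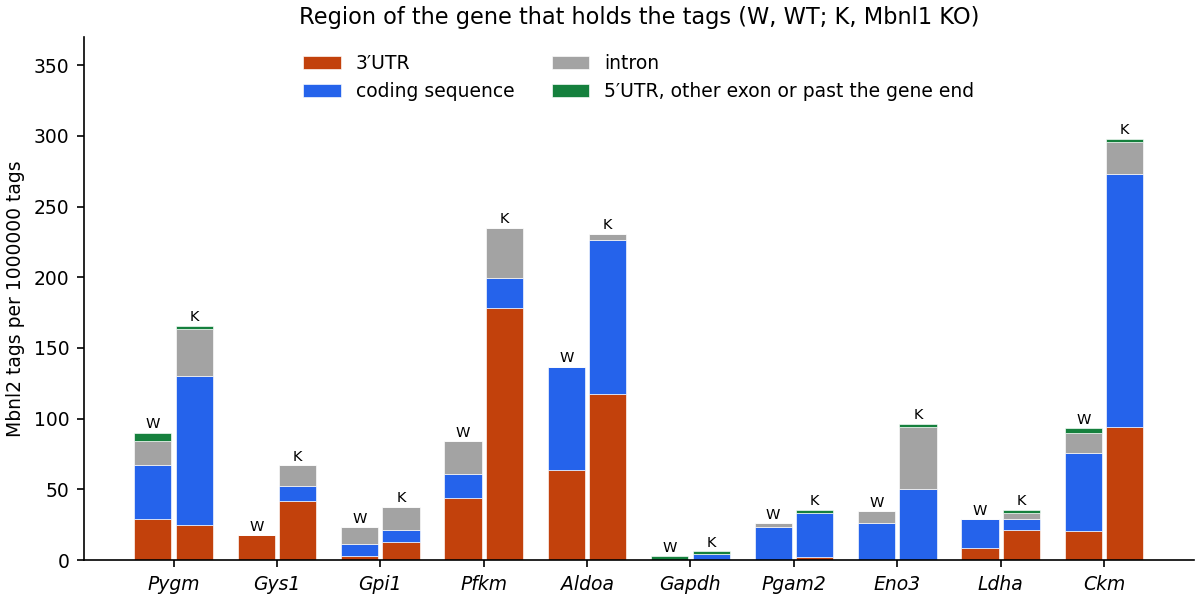
Mbnl2 tags per 1000000 tags of the table over each gene, split by the region that holds the midpoint of the tag; for each gene the left bar (W) is WT and the right bar (K) is *Mbnl1* KO. Tags of Pfkm lie mostly in the 3′UTR, those of Pgam2 almost wholly in coding sequence, and Eno3 has 21 intron tags in *Mbnl1* KO against 3 in WT.

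The genes differed in where their tags lay. Pfkm carried 15 WT and 85 *Mbnl1* KO tags in a 3′UTR of 391 nt, a ratio of 4.09 (2.34 to 7.62), and 6 and 10 tags in 2340 nt of coding sequence, a ratio of 1.20 (0.396 to 4.02). In *Mbnl1* KO the Pfkm 3′UTR thus held 75.9% of the gene's tags, against 51.7% in WT. Ckm had more tags in both regions, with 7 WT and 45 *Mbnl1* KO tags in the 3′UTR (ratio 4.63, 2.07 to 12.2) and 19 and 85 in coding sequence (3.23, 1.94 to 5.62). Pygm showed the other pattern. Its coding sequence had 13 WT and 50 *Mbnl1* KO tags (2.77, 1.48 to 5.56), and its 3′UTR had 10 and 12 (0.865, 0.343 to 2.24). Aldoa was split almost evenly, with 22 WT and 56 *Mbnl1* KO tags in a 3′UTR of 188 nt (1.84, 1.10 to 3.16) and 25 and 52 in coding sequence (interval 0.914 to 2.52). No difference between regions of a gene was tested, since each rests on single merged libraries.

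Among the genes with few tags, Pgam2 had 8 of its 9 WT tags and 15 of its 17 *Mbnl1* KO tags in coding sequence, and its 3′UTR is only 36 nt long. Ldha had 3 WT and 10 *Mbnl1* KO tags in the 3′UTR and 7 and 4 in coding sequence, so its overall count joins regions with ratios of 2.40 (0.619 to 13.6) and 0.412 (0.0884 to 1.62), both of which include 1. Eno3 was the gene with the clearest intron signal. Its introns held 3 tags in WT and 21 in *Mbnl1* KO (5.05, 1.51 to 26.4). Intron 6 of the longest coding transcript, 1498 nt long (chromosome 11 from 70472664 to 70474161), held 2 WT and 14 *Mbnl1* KO tags, and intron 8, 194 nt long, held 0 and 7. Over the 10 genes, 13 of 27 WT and 41 of 84 *Mbnl1* KO intron tags lay within 200 nt of an exon (48.1% and 48.8%), and 29.6% of the intron sequence lies that close.

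**Figure D3:**
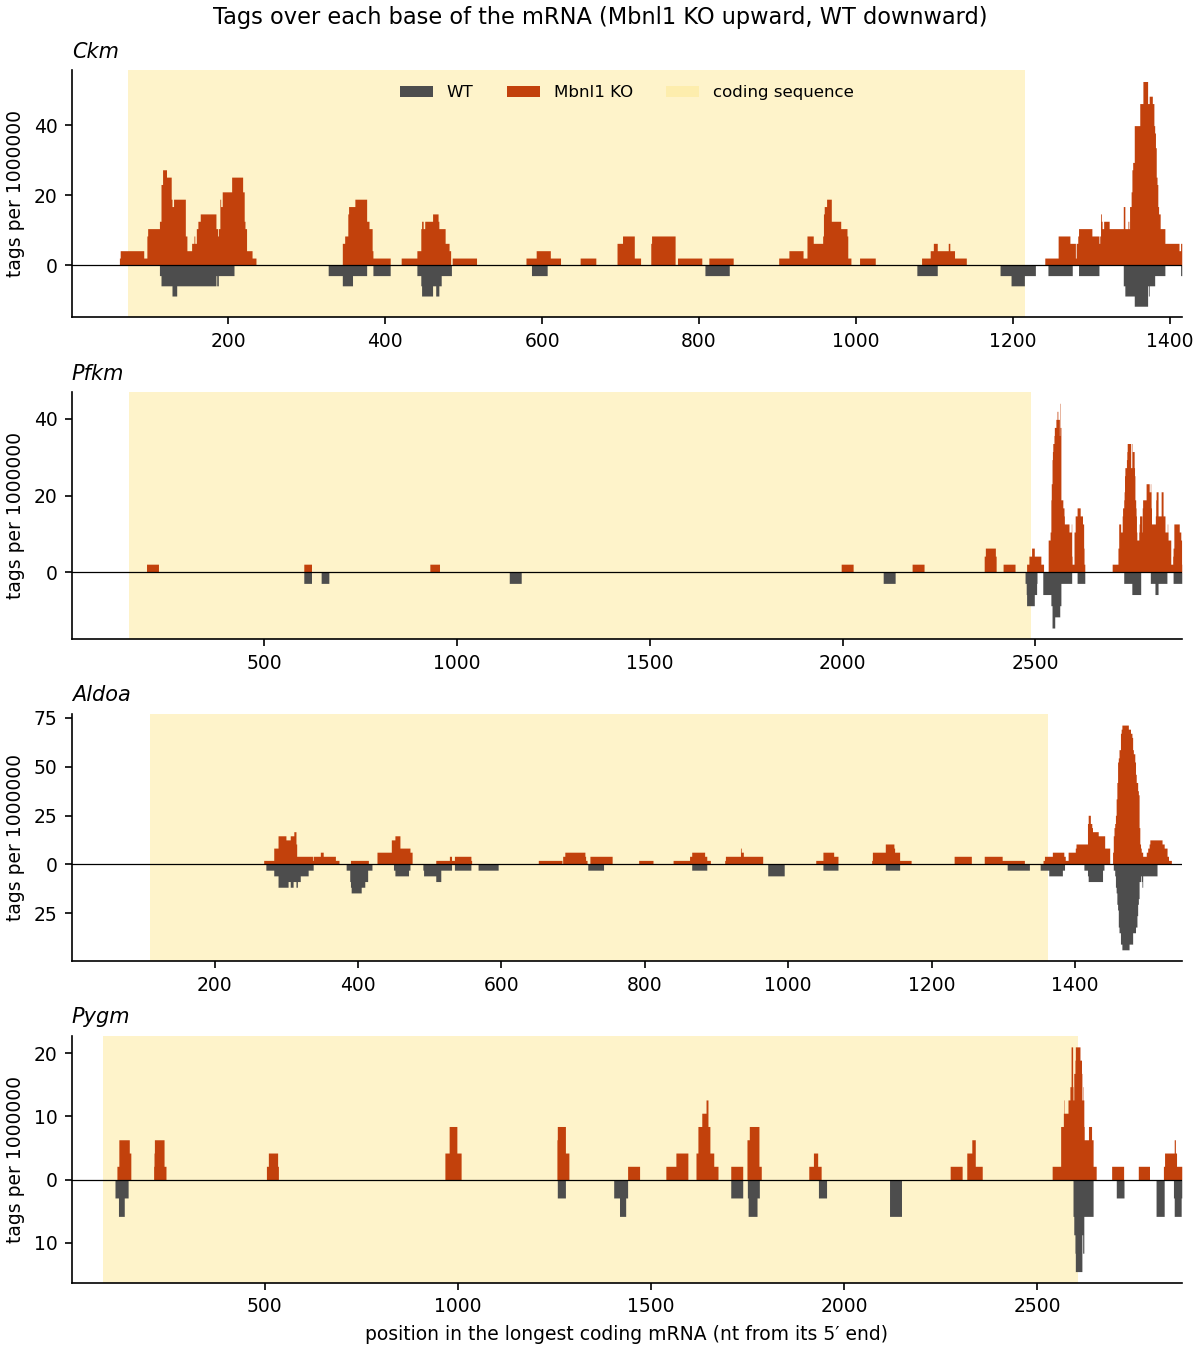
Number of Mbnl2 tags over each base of the longest coding mRNA of Ckm, Pfkm, Aldoa and Pygm, per 1000000 tags of the table, against the position in nt from the 5′ end; *Mbnl1* KO is drawn upward, WT downward, and the shaded span is the coding sequence. In Ckm, Pfkm and Aldoa the highest peak lies in the 3′UTR, and in Pygm it lies at the stop codon.

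Of the 12 sites, 11 had tags of both genotypes. The distal site of the Pfkm 3′UTR (chromosome 15, 97962698 to 97962879) held 6 tags in WT and 50 in *Mbnl1* KO, and its ratio of 6.01 (2.57 to 17.1) was the highest among sites with WT tags. The proximal site (97962472 to 97962626) had 11 and 36 tags, a ratio of 2.36 (1.17 to 5.14). Neither window holds a motif, and over their whole lengths of 182 and 155 nt the sites hold 2 motifs each.

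The site at the end of Ckm (chromosome 7, 20006758 to 20006951) held 8 tags in WT and 46 in *Mbnl1* KO, for a ratio of 4.15 (1.94 to 10.2). Its highest point lies 47 nt before the annotated end of the gene, and its 194 nt hold 12 motifs. In exon 2 of Ckm, the first with coding sequence, a site (19999508 to 19999649) held 7 and 34 tags, for a ratio of 3.50 (1.53 to 9.36), with 1 motif in 142 nt. A further site in exon 7 of Ckm (20005508 to 20005599) held 0 tags in WT and 11 in *Mbnl1* KO. Set against the 3 WT tags that a count of 0 allows, this is at least 2.64-fold higher in *Mbnl1* KO, and the exact interval of the ratio, which also covers the error of the 11 tags, starts at 1.81.

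The main site of Aldoa (chromosome 7, 133938765 to 133938846), in the 3′UTR, was the most tagged of the 12, with 17 tags in WT and 41 in *Mbnl1* KO. Its window carries 3 motifs in a run, and the ratio was 1.74 (0.966 to 3.26). The second 3′UTR site of Aldoa had 5 and 15 tags (2.16, 0.747 to 7.61). At Pygm the site over the stop codon (chromosome 19, 6398124 to 6398237) held 7 tags in WT and 20 in *Mbnl1* KO (2.06, 0.837 to 5.77), and at Ldha the 3′UTR site had 2 and 8 (2.88, 0.575 to 27.9). The interval lay above 1 at the pair of sites in the Pfkm 3′UTR and at those in exon 2 and the 3′UTR of Ckm. It did so too at exon 7 of Ckm. Of these, the proximal Pfkm site alone had 10 tags in WT as well, and the others became sites through their *Mbnl1* KO tags, so the choice of sites favours high ratios. The share among sites of all genes was not computed, and the ratios of sites are given as descriptions. The number of reads behind a tag was uneven. At the proximal Pfkm site 1 *Mbnl1* KO tag accounted for 13838 of 33217 reads, and tags rather than reads were therefore counted.

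Averaged over tags, motifs were denser inside tags than over the whole regions of the 10 genes, though not at every site. Tags in 3′UTRs held 5.16 motifs per 100 nt of tag in WT and 4.41 in *Mbnl1* KO, against 1.94 per 100 nt of the 3′UTRs of the 10 genes. In coding sequence the tags held 2.97 and 3.02, against 1.75 in the sequence, and in introns 2.34 and 2.67 against 1.39. At least 1 motif was present in 41 of 64 WT and 142 of 235 *Mbnl1* KO tags in 3′UTRs. By contrast, the distal and proximal sites of the Pfkm 3′UTR held 1.10 and 1.29 per 100 nt, and the site in exon 2 of Ckm held 0.704, below the values of those regions. The values of the sequence weight each gene by its length, and those of the tags by its tags. In 3′UTRs, Gys1 gave 1255 of 3398 nt but 6 of 64 WT tags, and Aldoa 188 nt but 22 WT tags. The contrast thus mixes which gene is tagged with where in it the tags lie. Many of these tags overlap each other, and the values are given without a test.

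Gapdh, Aldoa and Ldha have near copies elsewhere in the genome, which bears on their counts. Of all stretches of 25 nt in the exons of Gapdh, 45.3% occur once in mm9, against 62.0% in Ldha, 70.4% in Aldoa, 77.9% in Gpi1 and between 95.7% and 99.9% in the other 6 genes. Tags of at least 25 nt at other loci were then counted where their whole reference sequence also occurs in the exons of the gene, a count chosen after the low value at Gapdh was seen. For Gapdh there were 5 such WT tags and 59 such *Mbnl1* KO tags, all in the sense direction of the copy, while the gene itself held 0 and 1 tags of that length. Aldoa had 11 WT and 37 *Mbnl1* KO tags of this kind, Ldha 4 and 17, Gpi1 0 and 3, and the other genes had 0. RNA from the gene and from a transcribed copy cannot be told apart at these positions. The counts of Gapdh, Aldoa, Ldha and, with fewer such tags, Gpi1 over their own bodies are therefore uncertain. This also holds for the 3′UTR sites of Aldoa, where 56.9% (main site) and 20.5% (second site) of 25-nt stretches occur once, and for that of Ldha (85.2%).

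The other genes of these pathways were taken from a list of 40 enzymes, transporters and regulators. All 40 had at least 1 tag, and 22 had at least 20. Of these 22, 16 had an interval above 1, 0 below 1 and 6 across it, beside the 38.6% of all genes. Scaled by the median gene 8 of 22 did (11.8% of all genes), with tags of at least 2 reads 3 of 17 (18.7% of all genes), and with single-base tags also left out 1 of 17 (11.1%). Their median ratio was 3.18, against 1.84 for the 9 genes of the set described. Around glycogen, Gyg, the primer glycogenin, had 12 tags in WT and 67 in *Mbnl1* KO (4.03, 2.16 to 8.18). Ppp1r3a, which brings a phosphatase to glycogen, had 25 and 113 (3.26, 2.10 to 5.25). The strand was not clear in WT at some genes of this list. On the opposite strand, Gyg had 14 WT and 2 *Mbnl1* KO tags, Ppp1r3a 24 and 4, and Gbe1 32 and 5. Gbe1 had 28 WT tags on its own strand. By contrast, pyruvate kinase had 0 and 1 on the opposite strand. The phosphorylase kinase subunit Phka1 had 30 and 120 tags (2.88, 1.92 to 4.46), whereas the intervals of Phkb (1.53, 0.933 to 2.57) and Phkg1 (1.01, 0.549 to 1.89) included 1.

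Within glycolysis, pyruvate kinase (Pkm, annotated as Pkm2) had 50 WT and 176 *Mbnl1* KO tags (2.54, 1.84 to 3.55), the most of the list. Pgk1, the phosphoglycerate kinase, had 4 and 29 (5.23, 1.84 to 20.5), Tpi1, the triosephosphate isomerase, 10 and 46 (3.32, 1.65 to 7.37), and Ldhb, the lactate dehydrogenase subunit typical of oxidative fibres, 3 and 31 (7.45, 2.32 to 38.1). The glucose transporter Slc2a4 had 2 WT and 19 *Mbnl1* KO tags (6.85, 1.65 to 60.6), and the hexokinase Hk2 had 9 and 39 (3.12, 1.49 to 7.33). Of the genes that buffer ATP, Ampd1, the muscle AMP deaminase, had 7 and 59 tags (6.08, 2.77 to 15.8), while the intervals of the mitochondrial creatine kinase Ckmt2 (1.62, 0.671 to 4.31) and of adenylate kinase Ak1 (1.16, 0.624 to 2.22) included 1. The remaining genes with at least 20 tags were Pfkfb3, Pfkfb4, Pfkp, Gpd1, Slc16a1 and Pgm2, with intervals above 1, and Gbe1 and Gsk3b, with intervals across it. Among the 18 genes with fewer than 20 tags, the hexokinase Hk1 had 12 tags in WT and 5 in *Mbnl1* KO, an interval wholly below 1 (0.300, 0.0829 to 0.916), and Pfkfb1 and Ppp1r3c had intervals above 1.

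**Figure D4:**
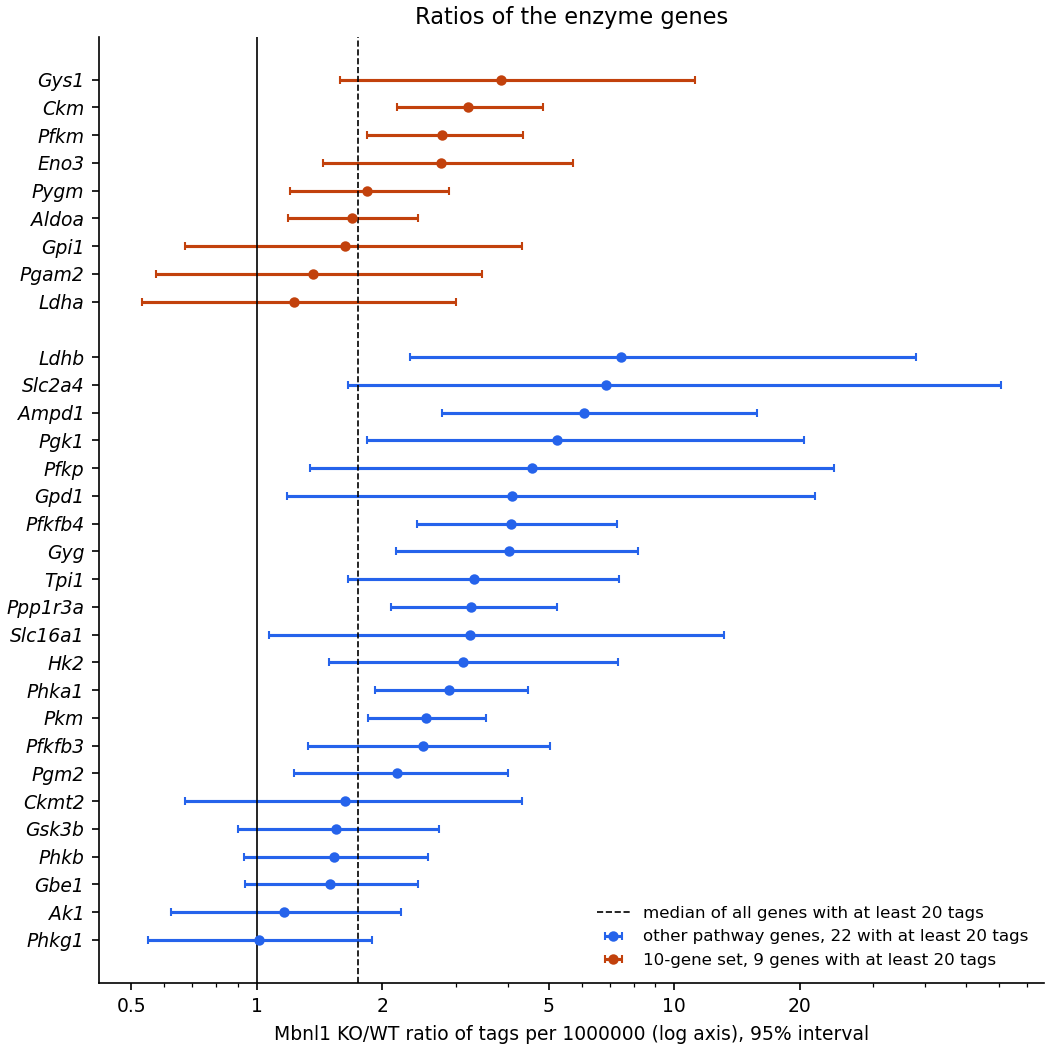
*Mbnl1* KO/WT ratio of tags per 1000000 with its exact 95% interval (log axis) for the 9 genes of the set with at least 20 pooled tags (orange) and the 22 other pathway genes with as many (blue); the solid line marks 1 and the dashed line the median of all 3888 genes, 1.75. The set runs from 1.23 at Ldha to 3.84 at Gys1, and the other genes from 1.01 at Phkg1 to 7.45 at Ldhb.

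The tissue label was checked with markers. The 10 muscle fibre markers, among them the fast fibre genes Myh4 and Tnnt3 but also Acta1 and Ttn, which fibres of all types use, all had tags, 801 in WT and 2845 in *Mbnl1* KO (2332 and 5970 per 1000000). The slow fibre markers had 11 and 19 tags (32.0 and 39.9 per 1000000). Of the other lists, heart markers had 17 tags in WT and 56 in *Mbnl1* KO (49.5 and 118 per 1000000), adipocyte markers 2 and 18 (5.82 and 37.8), endothelial markers 29 and 73 (84.4 and 153), erythroid markers 5 and 6, leukocyte markers 9 and 8 and nerve markers 3 and 5. Nppa (heart) and Hbb-b2 (erythroid) had 0 tags. Their part in the ratios was not tested.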

How the data were processed

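After quality filtering, the authors mapped reads to mm9 using BWA (version not given in the sources used here), left out likely PCR duplicates and sequences under 20 nt (the tables still hold tags of 18 nt), and pooled the 3 mice per genotype. Each line of a deposited table is 1 tag, and the count beside it gives how many reads it stands for, without normalization. Whether the tables join high and low RNase, and how reads with several matches were placed, is not given in the sources used here.

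Tags overlapping a gene body on its strand (mm9 GENCODE vM1) were counted in Python 3.11.15 (intervals from scipy 1.17.1), divided by the tags of the table (343554 WT, 476543 *Mbnl1* KO) and compared as a ratio with an exact 95% interval. Where transcripts disagreed, 3′UTR went before coding sequence, 5′UTR, other exon and intron. Genes needed 20 pooled tags and sites 10. All genes of the set were named, and of the second list those with at least 20 tags. An item of the second list is not reported here and is left out of its counts. The set, lists and alternatives were chosen with earlier results of these data known. Alternatives changed the scaling, the definition of a tag and the regions.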

Additional observations from a re-analysis of the deposited data

Results flagged for a closer look

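Tags at other loci that match the exons of Gapdh stood out because they lie outside the gene bodies counted in the comparison and were above the WT level. There were 59 in *Mbnl1* KO and 5 in WT, a ratio of 8.51 (exact 95% interval 3.45 to 27.2), spread over 19 chromosomes. Many repeat a sequence at different copies, since they match 24 distinct stretches of Gapdh exons in *Mbnl1* KO and 4 in WT (ratio 4.33, 1.49 to 17.2). Of the 59 tags, 24 rested on at least 2 reads. The same count for Aldoa gave 37 tags in *Mbnl1* KO and 11 in WT (2.42, 1.21 to 5.27). With its own tags of at least 25 nt and these together, Gapdh had 5 WT and 60 *Mbnl1* KO tags (8.65, 3.51 to 27.6), Aldoa 32 and 115 (2.59, 1.74 to 3.96), and Ldha 7 and 28 (2.88, 1.23 to 7.82), of which 3 and 11 lay in Ldha itself. Tags of at least 25 nt, scaled like these ratios by all tags of the tables, had a median ratio of 2.88 over all genes with at least 20 of them.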

How the results depend on the processing

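The median ratio over the 10 genes stayed above 1 under each of the 10 alternatives. It was 1.15 scaled by the median gene, 1.11 with tags of at least 2 reads, 1.11 when these also excluded single-base tags, and 3.76 with tags of at least 25 nt. These medians include genes with too few tags to be tested. Over the 6 genes still tested, the median with at least 2 reads was 1.90, against 1.49 over all genes tested that way. It was 1.60 against 1.33 when single-base tags were excluded too, and 4.66 against 3.12 with tags of at least 25 nt. The number of genes with an interval above 1, 6 as reported, was 2 of 9 scaled by the median gene (11.8% of all tested genes). It was 4 of 9 with single-base tags left out (26.5%) and 6 of 6 with tags of at least 25 nt (63%). With at least 2 reads it was 2 of 6 (18.7%), and 0 of 6 when single-base tags were excluded too (11.1%). Scaled by the median gene, which divides every ratio by the same factor, Aldoa turned to 0.967, Gpi1 to 0.929, Pgam2 to 0.780 and Ldha to 0.702, and with at least 2 reads and single-base tags left out Pygm turned to 0.840, Aldoa to 0.852, Pgam2 to 0.752, Ldha to 0.627 and Gapdh, with 1 tag in each table, to 0.313, with intervals that include 1. The share of tags in 3′UTRs in *Mbnl1* KO was 47.6% with introns left out. In the second list, with alternatives chosen after the data were seen, the number with an interval above 1 was 8 of 22 scaled by the median gene (11.8% of all genes), 10 of 18 with the same 5′ end collapsed (29.4% of all genes tested that way), 3 of 17 with at least 2 reads (18.7%) and 1 of 17 when single-base tags were excluded too (11.1%). The causes were not tested. Single-base tags were nearly absent from these genes, so leaving them out changed the scale and few of their tag counts (median 1.43). The intervals of Pygm (1.25, 0.818 to 1.97) and Aldoa (1.15, 0.811 to 1.66) then included 1. The ratios of Pgam2 (0.929) and Ldha (0.836) fell below 1, with intervals that include 1. The median of the 9 genes tested was then 1.39, against 1.48 over all genes tested that way. No paired analysis was possible because each genotype is a single table of pooled mice, so leaving out a replicate could not be tried either. Ratios are imprecise where WT tags are few, as at Gapdh, Gys1, Gpi1, Pgam2 and Ldha.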
